A study of Sus scrofa with 23 samples.

Results

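Cytokines are small secreted proteins that cells of the immune system, and also muscle fibres, blood vessels and fat cells, use to signal to each other, and chemokines are the cytokines that guide migrating cells. They act through membrane receptors, and the families differ in their signalling chains inside the cell: many interleukin receptors and the interferon receptors use JAK kinases and STAT factors, chemokine receptors use G proteins, receptors of the tumour necrosis factor (TNF) superfamily use TRAF adaptors and NF-kappa-B, and receptors of transforming growth factor beta (TGFB) use SMAD factors. In skeletal muscle they are best known from injury, regeneration and wasting. The genes described here are those whose array name is IL followed by a digit, or begins with CCL, CXCL, CCR, CXCR, TNFSF, TNFRSF, TGFB or IFN, with CD40 left out. This rule took 96 of the 36108 gene names on the array, read by 136 of its 43603 non-control probes. They were measured in Longissimus, the long muscle of the back, of 23 pigs at 115 kg body weight, with 1 single-colour array for each pig.

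The pigs came from lines divergent for residual feed intake (RFI), that is, for how much an animal eats beyond what its growth and upkeep would predict. The 7 RFIneg pigs were of the low-RFI line and ate freely. The 8 RFIplR pigs were of the high-RFI line and were given only as much feed as the low line ate. The 8 RFIpl pigs were of the high-RFI line and ate freely. The labels name no drug and no engineered allele, and give neither age nor sex.

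Between 41.6% and 79.0% of the spots on an array were well above background, with medians of 69.3% in RFIneg, 67.25% in RFIplR and 67.95% in RFIpl pigs. The precision of what follows is set by having 7 or 8 arrays in a group. The arrays lay on 6 slides, each with all 3 groups, and were scanned on 2 days. The 4 arrays of slide 3 were the dimmest, at 41.6% to 58.8%. All 14 measured muscle fibre genes were well above background on all 23 arrays, so the tissue label stood. Of 23 leukocyte genes found on the array, 17 were measured and 8 were well above background on every array, while CD4, CD8B, CD2, CD79A and PRF1 were among those not measured.

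Probes entered the tests when 1 or more groups had at least 6 arrays on which the scanner software called them well above background. That held for 86 of the 136 cytokine probes (63.2%), from 59 genes, against 27785 of all 43603 probes (63.7%). On all 23 arrays, 47 of the 136 (34.6%) were well above background, against 40.1% of all probes, and 16 were so on no array. Detection differed by role. All 4 interferon receptor genes, all 3 TGFB ligands, 14 of 16 chemokines and 4 of 6 TNF receptor superfamily genes were kept. Of the secreted interleukins 11 of 24 were kept, and of the interferons 5 of 13.

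**Figure D1:**
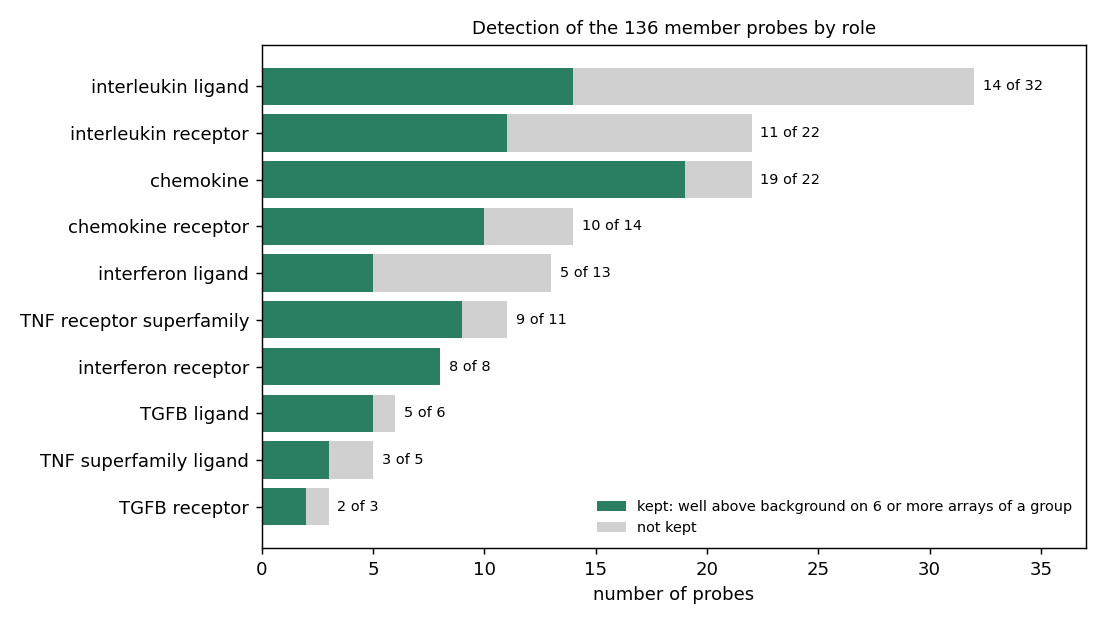
Number of probes for each role, with kept probes in green and the others in grey. All 8 interferon receptor probes and 19 of 22 chemokine probes were kept, against 14 of 32 interleukin and 5 of 13 interferon probes.

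The 37 genes without a kept probe included inflammatory and T cell cytokines: IL1B, IL2, IL4, IL12A, IL12B, IL13, IL17A, IL21, IL22, IL23A and IL8, the last a chemokine now named CXCL8 that the rule counted by its array name. IL7 and IL9 were not kept either. Of the receptors, IL2RA, IL2RG and IL7R, which T cells use, and CCR3, CCR7 and CCR9 were not kept. The probes named TNFRSF4 and TNFRSF8, neither of them kept, carry RefSeq accessions of TNFSF4 and TNFSF8, so the array names point to the receptors and the accessions to the ligands.

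Some probes share stretches of sequence, which bears on what their signal measures, and the stretches are shown here in capitals as the scanner files list the probes. Of the 86 kept probes, 7 share at least 20 identical bases with a probe of another name; those of IFN-DELTA-1, IFNG and IL1A are not shown, and the other 4 are. IFN-DELTA-6 and IFN-DELTA-9 are 2 porcine type I interferons of the delta family, known from the pig trophoblast, and their probes share 24 bases:
IFN-DELTA-6: atgTAGTTCCTGTGCCTGGGAGGTTGTaag
IFN-DELTA-9: ataTAGTTCCTGTGCCTGGGAGGTTGTcag
The brightest probe of TNFRSF1A, the main receptor of TNF, ends in a TG repeat, and it shares 20 to 25 bases with 15 probes of other names:
TNFRSF1A: gcaggtTGTGTGTGTGTGTGTGTGTGTGTG
The letters TGTGTGTGTGTG are in 0.112% of all 43603 probes on this strand and 0.0849% on the other. The probe of IFNAR2, a chain of the type I interferon receptor, shares 21 to 24 bases with 3 probes of other names, all of them bright, at log2 levels of 8.18 to 8.78:
IFNAR2: caaTCCCTGGCCCAGGAACTTCCATATgcc
How far such stretches contribute to the signals was not tested.

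Levels are log2 processed signals minus the 75th percentile of the array. They depend on the probe as well as on the RNA, so levels of different probes are not set against each other below. Sums and means over gene lists do join probes. The 3 groups were compared with limma, a linear model with moderated variances, and p-values were adjusted over all 27785 kept probes. No cytokine, chemokine or receptor probe passed an adjusted p of 0.05 in any comparison: 0 of 86 between RFIneg and RFIpl pigs, where 0.122% of all kept probes passed; 0 of 86 between RFIplR and RFIpl pigs, where 0.0036% passed; 0 of 86 between RFIneg and RFIplR pigs, where 0.162% passed; and 0 of 86 in the F test over the 3 groups, where 0.137% passed. The smallest limma adjusted p among the members were 0.249, 0.205, 0.354 and 0.217 in that order. At an unadjusted limma p below 0.05 there were 3, 3, 6 and 5 of the 86 probes (3.49%, 3.49%, 6.98% and 5.81%). Over all kept probes, 11.1%, 9.76%, 10.2% and 12.5% lay below it. Of the 3 between RFIplR and RFIpl pigs, 1 was higher in RFIplR pigs. That was the second IL6 probe, which entered the tests only through RFIplR, so its low p is no support for a difference. In all 4 tests of this fit the share of low p-values was smaller among the members than over the array. That is a description only, as the member counts moved with the processing. Between RFIplR and RFIpl pigs they were 14 of 86 with another background correction (normexp, described below), 9 with slide as a fixed block and 2 with quantile normalization.

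Between RFIneg and RFIpl pigs, 45 of 86 probes (52.3%) had a positive difference, against 55.3% of all kept probes, and the median difference was 0.01, against 0.02 over all kept probes on the log2 scale. Between RFIplR and RFIpl pigs, 31 of 86 probes (36.0%) had a positive difference, against 53.1% of all, with medians of -0.08 and 0.01. Between RFIneg and RFIplR pigs, 61 of 86 (70.9%) were positive, against 54.7% of all, with medians of 0.10 and 0.02. These last 2 comparisons share the restricted pigs, and the first 2 share the RFIpl pigs, so they are not independent. The alternative normexp models each spot's mean signal against its local background in place of the software's processed signal. With it both leanings turned round, to 73.3% and 24.4% positive, against 60.9% and 39.7% of all kept probes. Between 78 and 81 of the 86 differences in each comparison were smaller than 0.5 log2 units in size.

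**Figure D2:**
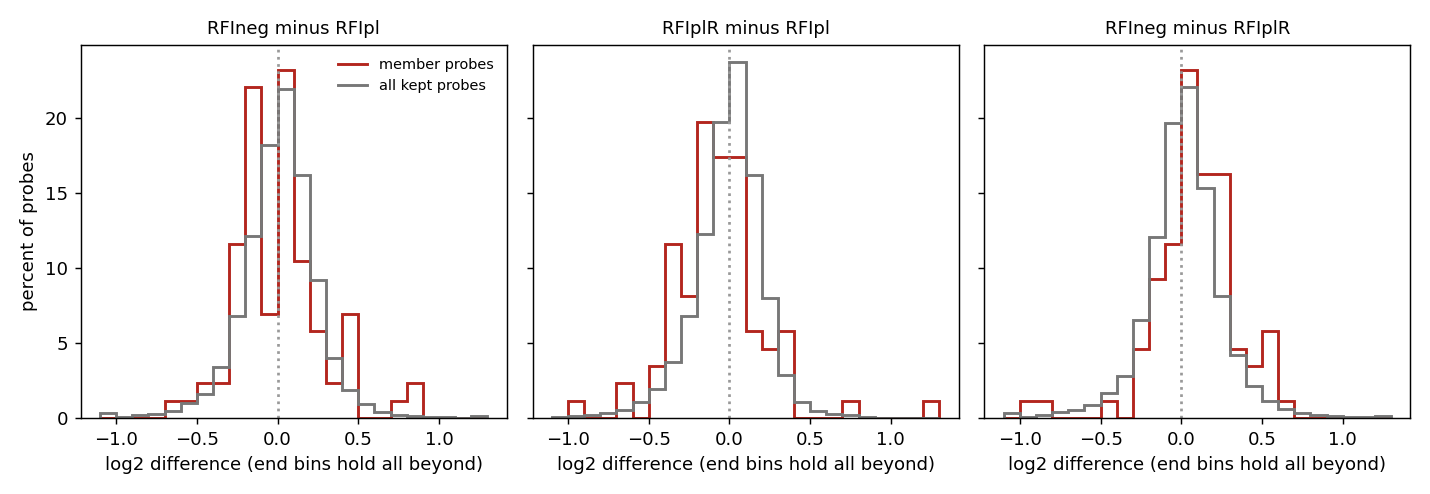
Share of probes, in percent, by log2 difference between groups in bins of 0.1, for the 86 kept cytokine probes (red) and all 27785 kept probes (grey). The red outline sits to the left of the grey one for RFIplR minus RFIpl (medians -0.08 and 0.01) and to its right for RFIneg minus RFIplR (medians 0.10 and 0.02).

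Values of leukocyte genes stand beside these. Of the 17 measured, 14 had negative differences between RFIplR and RFIpl pigs, with a median of -0.24, and 0 passed the test. With normexp 10 of the 17 were positive and the median was 0.13, beside 60.9% and 0.21 over all kept probes. The summed level of the leukocyte genes lay between 2.98 and 4.27 in RFIplR pigs, against 3.36 to 4.10 in RFIpl pigs, so the ranges overlapped. Between RFIneg and RFIpl pigs 14 of the 17 were also negative, with a median of -0.18. There the cytokine probes had a median of 0.01. The summed level ran from 3.16 to 3.89 in RFIneg pigs. Between RFIneg and RFIplR pigs 12 of the 17 were positive, with a median of 0.10, the same median as the cytokine probes had. With normexp 4 of the 17 were positive in that comparison and the median was -0.31, beside 39.7% and -0.14 over all kept probes. In whole muscle, fewer cells of a type and less RNA per cell cannot be told apart, and the part of leukocytes in the cytokine values was not tested. Of 12 adipocyte, 7 endothelial and 5 fibroblast genes, 5, 2 and 0 were positive between RFIplR and RFIpl pigs, 1, 2 and 2 between RFIneg and RFIpl pigs, and 4, 4 and 4 between RFIneg and RFIplR pigs. Of 14 muscle fibre genes, 11, 13 and 12 were positive in the same order of comparisons, with medians of 0.05, 0.15 and 0.08, but 0, 1 and 14 with normexp, with medians of -0.77, -0.11 and 0.66, and with quantile normalization 4 in the last comparison. The summed level of the fibre genes was 13.29 to 13.46 in RFIneg, 13.06 to 13.59 in RFIplR and 13.03 to 13.46 in RFIpl pigs. None of these genes passed the test, and their part was not tested either.

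Among chemokine receptors, CCRL2 had the smallest p between the lines when both ate freely. CCRL2 is an atypical receptor that binds chemerin and passes on no chemokine signal of its own. Its level was -2.70, -1.59 and -0.89 (lowest, median and highest) in the 7 RFIneg pigs, -3.11, -2.35 and -1.14 in the 8 RFIplR pigs, and -3.52, -2.51 and -1.73 in the 8 RFIpl pigs. Of the 7 RFIneg pigs, 6 lay above the RFIpl median, and the groups overlapped. The difference was 0.88 ± 0.29 (SE) between RFIneg and RFIpl pigs, with an unadjusted limma p of 0.00614 and an adjusted p of 0.249. Within the first scan day it was 1.22 and within the second 0.50, and the sign held on 4 of 6 slides. Between RFIneg and RFIplR pigs the difference was 0.62 ± 0.29, with a limma adjusted p of 0.477.

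CXCR4, the receptor of CXCL12, had 3 kept probes, whose differences lay between 0.04 and 0.05 for RFIneg against RFIpl, between -0.16 and -0.09 for RFIplR against RFIpl, and between 0.14 and 0.21 for RFIneg against RFIplR pigs. The 2 probes of CCR1, a receptor for CCL3 and CCL5 on monocytes, disagreed in sign between RFIneg and RFIpl pigs, at 0.24 and -0.37. The dimmer CCR1 probe gave -0.95 between RFIplR and RFIpl pigs, with an unadjusted limma p of 0.0589. All 10 kept chemokine receptor probes, from 7 genes, were positive between RFIneg and RFIplR pigs, with a median of 0.21, against 54.7% of all kept probes. So were all 8 interferon receptor probes, from 4 genes, all 5 interferon probes, and all 3 TNF superfamily ligand probes, from 2 genes. With normexp 4, 1 and 1 of these were positive. Among the 10 chemokine receptor probes, 3 were positive with normexp and the median was -0.36, beside 39.7% and -0.14 over all kept probes. Of the 10, 1 had an unadjusted limma p below 0.05.

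CCL25 is the ligand of CCR9 and is best known from thymus and gut. Its level was 1.28, 1.89 and 2.07 in RFIneg pigs, 1.06, 1.53 and 2.37 in RFIplR pigs, and 0.44, 1.20 and 2.27 in RFIpl pigs, with 1 RFIpl pig higher than all RFIneg pigs. The difference between RFIneg and RFIpl pigs was 0.46 ± 0.21 (limma adjusted p = 0.423), and between RFIplR and RFIpl pigs 0.32 ± 0.21 (limma adjusted p = 0.66), the second being 0.20 without RFIpl replicate 2 or RFIplR replicate 7 and -0.04 with normexp. Slide accounted for 67.1% of the variance of CCL25 over the 23 pigs and group for 18.8%, both uncorrected.

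CXCL12 is made by stromal and vascular cells and keeps CXCR4-bearing cells in place. Its brighter probe stood at 3.77, 4.01 and 4.25 in RFIneg pigs, 3.52, 3.90 and 4.20 in RFIplR pigs, and 3.40, 3.78 and 4.08 in RFIpl pigs. The RFIneg minus RFIpl difference was 0.23 ± 0.12 (limma adjusted p = 0.462), while the second CXCL12 probe gave 0.04. CCL20, the ligand of CCR6, differed by 0.49 ± 0.26 between RFIneg and RFIpl pigs (limma adjusted p = 0.503), and by 0.28 without RFIpl replicate 5. CCL4, which attracts monocytes and T cells, differed by -0.40 ± 0.25 between RFIplR and RFIpl pigs (limma adjusted p = 0.65), and without RFIpl replicate 2, whose level of -0.40 stood far above the other 7 at -2.46 to -1.91, the difference was -0.18, and with normexp it was 0.31.

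**Figure D3:**
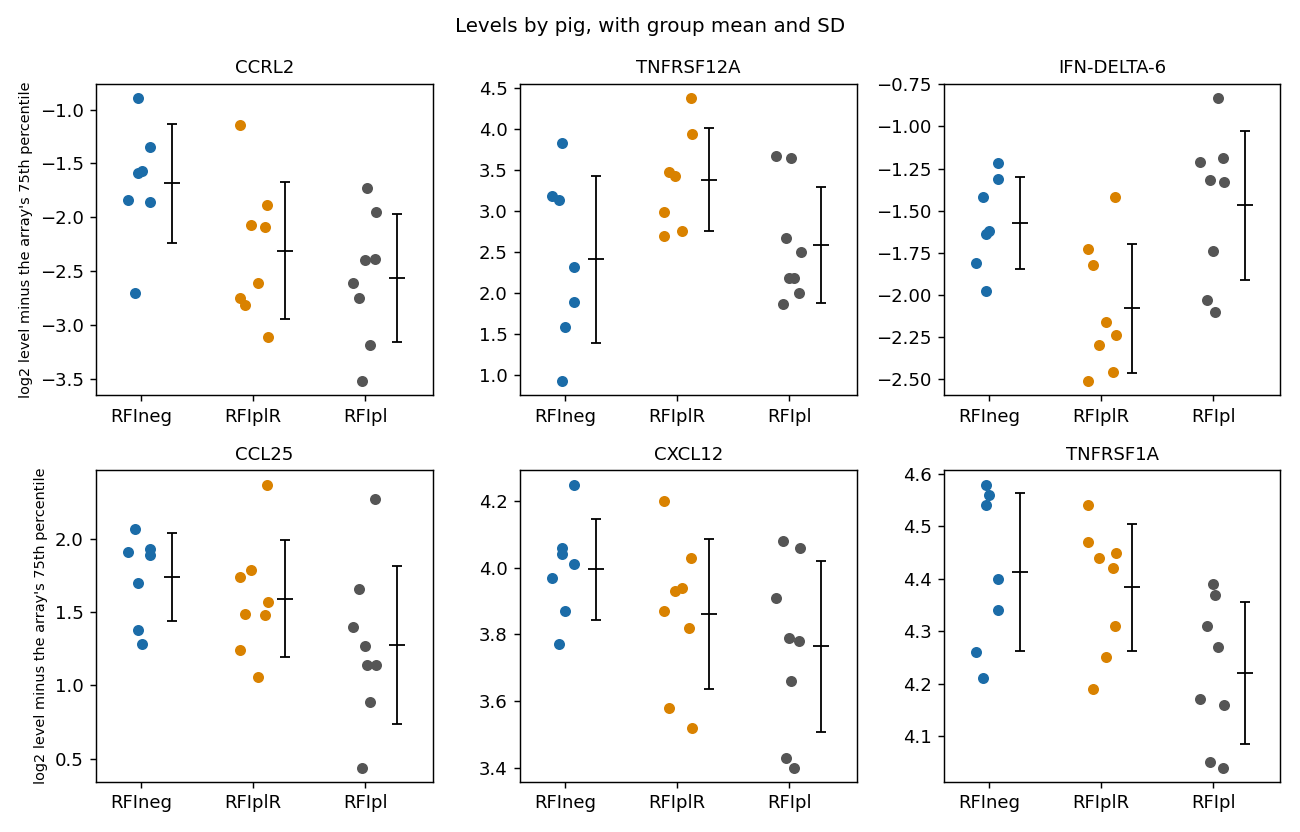
Levels of 6 genes on the same log2 scale as in the text, 1 point for each pig, with the group mean and SD at the right of the points. The groups overlap for all 6. The RFIneg mean of CCRL2 is -1.69, against -2.57 in RFIpl pigs, and the RFIplR mean of IFN-DELTA-6 is -2.08, against -1.47 in RFIpl pigs.

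The chemokines that varied most between pigs were CXCL9 and CXCL10, which cells release on exposure to interferon gamma and which draw in activated T cells. CXCL9 stood at -3.92, -2.65 and -0.63 in RFIneg pigs, -4.18, -3.04 and -0.18 in RFIplR pigs, and -2.56, -2.08 and -1.26 in RFIpl pigs. Its SD was 1.09, 1.30 and 0.41 in RFIneg, RFIplR and RFIpl pigs. For CXCL10 the SDs were 1.12, 1.11 and 0.39 in the same order. Pigs of the RFIpl group thus lay closer together for both, and the difference in spread was not tested. The SD within groups of CXCL10, at 0.93, exceeded that of 98.2% of all kept probes. The median SD was 0.43 over the 59 kept genes, against 0.30 over all kept probes, and it was 0.53 for the 28 genes whose level was below -2.

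For 8 pairs (a ligand and its receptor, chemokines known to be induced together, or IFNG and a chemokine it induces), picked after the data were seen, the deviations from the group means were correlated across pigs, with p-values adjusted over the 8. CXCL9 and CXCL10 correlated with a Pearson r of 0.76 over 23 pigs (permutation p = 0.0001, adjusted 0.00088) and a Spearman rho of 0.65 (permutation p = 0.00106, adjusted 0.00584). Without the 2 pigs farthest from the CXCL9 median, r was 0.56. It was 0.80 and 0.82 within the 2 scan days, and 0.83, 0.81 and -0.14 within RFIneg, RFIplR and RFIpl pigs.

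Lower values came from 6 further pairs. CCL2 and CXCL2 had an r of 0.49 (permutation p = 0.0148, adjusted 0.0395) and a rho of 0.43 (permutation p = 0.039, adjusted 0.078), and r was 0.32 without the 2 farthest pigs. CXCL12 and CXCR4 had an r of 0.45 (permutation p = 0.0284, adjusted 0.0568) and a rho of 0.46 (permutation p = 0.0288, adjusted 0.0767). TNFSF12 and TNFRSF12A, CCL2 and CCR2, and IFNG with CXCL9 and with CXCL10 gave r between 0.06 and 0.26, with adjusted permutation p for r of at least 0.395. The paired values come from the same arrays, so they share slide and array effects, and within slides r was 0.83 for CXCL9 and CXCL10, 0.44 for CCL2 and CXCL2, 0.35 for CXCL12 and CXCR4, 0.06 for TNFSF12 and TNFRSF12A, 0.28 for CCL2 and CCR2, and 0.01 and 0.10 for IFNG with CXCL9 and CXCL10.

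**Figure D4:**
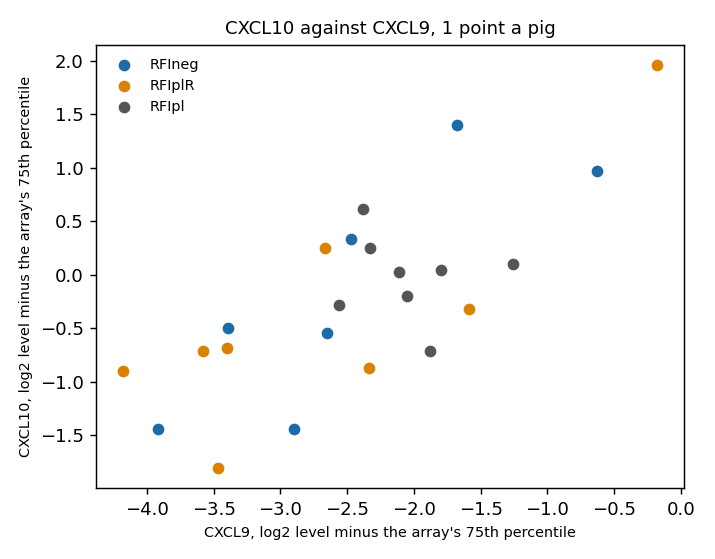
CXCL10 against CXCL9, levels on the log2 scale of the text, 1 point for each pig, coloured by group. Pigs high for 1 gene tend to be high for the other (r of 0.76 on deviations from the group means), and RFIpl pigs span the shortest range of CXCL9.

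In the TNF superfamily, TNFRSF12A, also called Fn14, is the receptor of TNFSF12 (TWEAK) and is known from mouse muscle to be induced by damage and denervation. Its brighter probe stood at 0.93, 2.32 and 3.83 in RFIneg pigs, 2.69, 3.43 and 4.38 in the 7 RFIplR pigs with a value, and 1.87, 2.34 and 3.67 in RFIpl pigs. The spot of 1 RFIplR pig was marked as an outlier by the scanner software and is missing from the fit. All 7 RFIplR pigs lay above the medians of both other groups, and the groups overlapped. The difference was 0.79 ± 0.39 between RFIplR and RFIpl pigs (limma unadjusted p = 0.0526, adjusted p = 0.522) and -0.97 ± 0.40 between RFIneg and RFIplR pigs (limma unadjusted p = 0.0237, adjusted p = 0.412). Within the scan days the second of these was -1.62 and -0.19. Both ends of the range came from slide 3, the dimmest. On it the RFIneg pig stood at 0.93, the RFIplR pigs at 3.48 and 4.38, and the RFIpl pig at 2.18. Leaving out 1 pig at a time gave -1.21 to -0.72 between RFIneg and RFIplR pigs, and 0.63 to 0.95 between RFIplR and RFIpl pigs.

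The second TNFRSF12A probe did not follow the first. It was dim, at -2.94, -2.69 and -2.21 in RFIneg pigs, -3.05, -2.64 and -2.12 in RFIplR pigs, and -2.80, -2.65 and -1.99 in RFIpl pigs, and its differences were -0.04 ± 0.13 and 0.01 ± 0.14 for the same 2 comparisons. The 2 probes read different stretches, and only the dim one holds AATAAA, the usual poly(A) signal, shown in capitals:
TNFRSF12A bright probe, last 30 bases: tctcagccctgggggtttagggacctgttc
TNFRSF12A dim probe: ggagaatttattAATAAAagaatctttaac
AATAAA is in 9.6% of all probes on this strand and its reverse complement in 4.17%, so its presence is a description only.

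**Figure D5:**
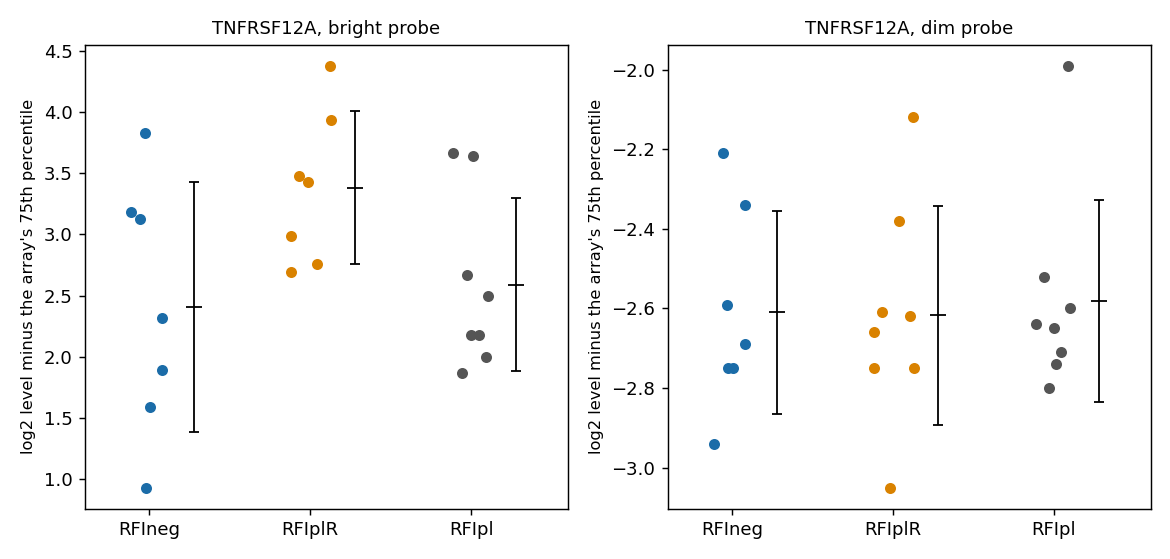
Levels of both TNFRSF12A probes, 1 point for each pig, with group mean and SD, each panel with its own axis. The bright probe averages 3.38 in RFIplR pigs, against 2.59 in RFIpl pigs, while the dim probe averages -2.62 and -2.58.

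TNFSF12, the ligand, stood at 5.09, 5.31 and 5.54 in RFIneg pigs, 4.96, 5.29 and 5.58 in RFIplR pigs, and 4.95, 5.18 and 5.48 in RFIpl pigs, with differences between 0.04 and 0.11. The brightest TNFRSF1A probe, with the TG repeat, gave 0.19 ± 0.08 between RFIneg and RFIpl pigs (limma unadjusted p = 0.0288, adjusted p = 0.379) and 0.16 ± 0.08 between RFIplR and RFIpl pigs (limma adjusted p = 0.514). The other 2 TNFRSF1A probes had the opposite sign in both comparisons, at -0.04 and -0.21 and at -0.04 and -0.12, and with normexp the first probe itself turned to -0.05 and -0.68. TNFRSF11B (osteoprotegerin, a decoy receptor) differed by 0.41 ± 0.21 and 0.45 ± 0.25 on its 2 probes between RFIneg and RFIpl pigs, with limma adjusted p of 0.481 and 0.532. TNFSF10 (TRAIL), a death ligand induced by interferons, differed by -0.37 ± 0.23 between RFIplR and RFIpl pigs (limma adjusted p = 0.646), and its second probe by -0.34, while normexp turned the first to 0.14.

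Among the interferons, IFN-DELTA-6 had the smallest p in both comparisons with the restricted pigs. Its level was -1.98, -1.62 and -1.22 in RFIneg pigs, -2.51, -2.20 and -1.42 in RFIplR pigs, and -2.10, -1.33 and -0.83 in RFIpl pigs. The restricted pigs tended to the low end, and 1 of them reached -1.42. The difference was -0.61 ± 0.18 between RFIplR and RFIpl pigs (limma unadjusted p = 0.0029, adjusted p = 0.205) and 0.50 ± 0.19 between RFIneg and RFIplR pigs (limma unadjusted p = 0.0137, adjusted p = 0.354). Between RFIplR and RFIpl pigs it was -0.88 and -0.34 within the scan days and negative on 5 of 6 slides, but with normexp both differences changed sign, to 0.15 and -0.10. IFN-DELTA-9, whose probe shares the 24 bases shown above, gave -0.35 ± 0.20 and 0.41 ± 0.21 for the same comparisons, with limma adjusted p of 0.595 and 0.507, and 0.15 and -0.05 with normexp. Because of the shared stretch, these probes may not be separate readings.

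IFNG, the interferon of T and NK cells, had a difference of 0.49 ± 0.25 between RFIneg and RFIpl pigs (limma adjusted p = 0.492), with the same sign on all 6 slides. Slide accounted for 75.8% of its variance and group for 14.4%, both uncorrected. The IFNG probe shares 21 bases with a probe of another name. It was well above background on 6 of 7 RFIneg, 7 of 8 RFIplR and 7 of 8 RFIpl arrays. IFN-ALPHA-10 was among the least variable members, at 0.16, 0.19 and 0.36 in RFIneg pigs, -0.01, 0.09 and 0.38 in RFIplR pigs, and 0.04, 0.16 and 0.39 in RFIpl pigs. Of the receptors, IFNAR2 lay between 9.06 and 9.20 in RFIneg pigs, between 9.01 and 9.07 in RFIplR pigs, and between 8.64 and 9.17 in RFIpl pigs. IFNAR1 had 2 probes, at -0.18 and -0.26 between RFIplR and RFIpl pigs, the dimmer with an unadjusted limma p of 0.0155. IFNGR2, a chain of the interferon gamma receptor, differed by at most 0.12 in size in the 3 comparisons. The 4 IFNGR1 probes disagreed in sign between RFIneg and RFIpl pigs, from -0.13 to 0.14, and were all positive between RFIneg and RFIplR pigs, from 0.02 to 0.20.

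Of the interleukins, IL6, which contracting muscle releases, had 2 dim probes that disagreed. The brighter probe was well above background on 6 of 7 RFIneg, 6 of 8 RFIplR and 3 of 8 RFIpl arrays, and the second on 4 of 7, 6 of 8 and 4 of 8. The second, singled out here after its values were seen, stood at -5.34, -4.78 and -3.77 in RFIneg pigs, -5.62, -3.84 and -1.16 in RFIplR pigs, and -6.01, -5.21 and -3.45 in RFIpl pigs. It entered the tests only through RFIplR, the group where it was highest, so the filter favoured a difference there, and its value of 1.30 between RFIplR and RFIpl pigs is given as a description. The first probe gave 0.30 ± 0.67, which was -0.03 without RFIpl replicate 1 and 0.72 without RFIplR replicate 2. Between RFIneg and RFIplR pigs the signs were opposite, at 0.51 for the first and -0.89 for the second, but the first was 0.09 without RFIplR replicate 2 and 0.82 without RFIplR replicate 6, and the second was -0.52 without RFIplR replicate 8. The brighter IL6 probe had the largest SD within groups of the 59 kept genes, 1.43. Slide accounted for an uncorrected 46.0% of its variance. The slides held different pigs, so slide effects and spread between pigs cannot be told apart in this SD. The highest values of the brighter probe in each group came from slide 3, the dimmest: -2.69 in RFIneg, -2.26 and -2.49 in RFIplR, and -2.64 in RFIpl pigs. The highest RFIplR values of the second probe, -1.16 and -2.98, were also from slide 3.

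IL25, an interleukin of the IL17 family, differed by 0.75 ± 0.41 between RFIneg and RFIpl pigs (limma adjusted p = 0.515), at 1.34 within the first scan day and 0.05 within the second. IL1A, an alarm cytokine, differed by -0.48 ± 0.23 between RFIneg and RFIplR pigs (limma adjusted p = 0.497), or -0.30 without RFIneg replicate 5, and IL1RN, the natural blocker of its receptor, by 0.34 ± 0.24 (limma adjusted p = 0.679), which was -0.20 with normexp. IL15, which muscle itself makes, gave 0.21 and 0.37 on its 2 probes for the same comparison, the second with an unadjusted limma p of 0.0364. IL16, a T cell attractant, differed by at most 0.13 in size in any comparison. IL6ST (gp130), the signalling chain shared by IL6 and its relatives, gave -0.18 ± 0.11 and -0.25 ± 0.11 on its 2 probes between RFIneg and RFIplR pigs, with limma adjusted p of 0.595 and 0.455; normexp turned the first to 0.06. IL4R gave between -0.24 and -0.08 on its brighter probe and between -0.00 and 0.11 on its dimmer one. IL13RA1, a chain of the IL13 receptor, gave -0.42 ± 0.27 between RFIplR and RFIpl pigs (limma adjusted p = 0.657), which was -0.15 without RFIpl replicate 4 and 0.48 with normexp.

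TGFB1, TGFB2 and TGFB3, which restrain muscle growth and promote scar formation, had 5 kept probes. All 5 were negative between RFIneg and RFIpl pigs, from -0.30 to -0.20, with unadjusted limma p of 0.11 or more. With normexp 2 of the 5 were positive, beside 63.0% of all kept probes. Within the first scan day the 5 lay between -0.64 and -0.26, and within the second 4 of the 5 were positive, at 0.08 to 0.11, and the other was -0.12. The brighter TGFB3 probe stood at -0.70, -0.11 and 0.74 in RFIneg pigs, -0.13, -0.01 and 0.69 in RFIplR pigs, and -0.25, 0.14 and 1.09 in RFIpl pigs. The co-receptor TGFBR3 gave -0.25 ± 0.22 for RFIneg and -0.26 ± 0.21 for RFIplR against RFIpl pigs, with limma adjusted p of 0.733 and 0.744.

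Among the 23 genes with more than 1 kept probe, the probes had the same sign for 19 between RFIneg and RFIpl, 16 between RFIplR and RFIpl, and 19 between RFIneg and RFIplR pigs. Slide accounted for a median of 29.3% of the variance of a member gene over the 23 pigs, and group for 7.78%, both uncorrected. There were more slides than groups, and an uncorrected share from noise alone grows with the number of levels. These medians therefore cannot show whether slide mattered more than group.

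Of 3 lists of signalling genes, most of them downstream of the receptors, 0 genes passed an adjusted limma p of 0.05 in any comparison. The same held for a list of cytokines and receptors outside the name rule. Of 14 measured JAK and STAT pathway genes, 1, 2 and 0 had an unadjusted limma p below 0.05 for RFIneg against RFIpl, RFIplR against RFIpl, and RFIneg against RFIplR, where 11.1%, 9.76% and 10.2% of all kept probes did. STAT5B, which carries growth hormone and cytokine signals, differed by 0.31 ± 0.11 and 0.25 ± 0.11 in the first 2 of these, and PTPN11, a phosphatase of the pathway, by -0.30 ± 0.19 and -0.54 ± 0.18. STAT2 and TYK2, which act behind the interferon receptors, differed by 0.17 and 0.21 between RFIneg and RFIplR pigs.

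Of 13 measured genes of the NF-kappa-B and TNF receptor pathway, 0, 3 and 2 had an unadjusted limma p below 0.05 in the same order, beside the same 11.1%, 9.76% and 10.2% of all kept probes. TRAF6, an adaptor of interleukin 1 and Toll-like receptors, differed by -0.62 ± 0.29 between RFIplR and RFIpl pigs and by 0.92 ± 0.30 between RFIneg and RFIplR pigs, with limma adjusted p of 0.491 and 0.275. TRAF5 gave -0.33 ± 0.14 and 0.31 ± 0.14, with limma adjusted p of 0.412 and 0.465. FADD and CASP8, which link death receptors to caspases, gave -0.23 and -0.31 between RFIneg and RFIpl pigs.

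The SMAD pathway list had 5 measured genes: SMAD2, SMAD3, SMAD4, and DCN and THBS1, whose products lie outside the cell. DCN is also among the fibroblast genes above. Of the 5, 1 had an unadjusted limma p below 0.05, between RFIplR and RFIpl pigs, where 9.76% of all kept probes did. It was SMAD3, at 0.34 ± 0.13 in that comparison and -0.26 ± 0.14 between RFIneg and RFIplR pigs, with limma adjusted p of 0.375 and 0.534. SMAD2 and SMAD4 differed by -0.08 and -0.09 between RFIneg and RFIpl pigs. Of 10 measured cytokines and receptors whose names lie outside the rule, 8, 6 and 8 were positive in the 3 comparisons. CSF3, a granulocyte growth factor, gave 0.38 and 0.40 against RFIpl for RFIneg and RFIplR pigs, and SPP1 (osteopontin), a macrophage and matrix cytokine, gave -1.96 ± 1.04 between RFIplR and RFIpl pigs. EPOR, the erythropoietin receptor, gave 0.56 ± 0.43 between RFIneg and RFIpl pigs, and XCL1, a lymphocyte chemokine, 0.20 ± 0.23 between RFIneg and RFIplR pigs, with limma adjusted p of 0.688 and 0.839. CNTF, a Schwann cell cytokine, gave 0.27 ± 0.12 between RFIneg and RFIplR pigs (limma adjusted p = 0.432).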

How the data were processed

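Feature Extraction 10.7.3.1 subtracted the background from each spot's intensity and removed spatial trends, per the file headers. R 2.10.0 appears in the submitters' processing notes. The deposited log2 table, with each column centred on a median of 0, holds 26410 probes and was used as an alternative, as was the mean and background intensity of each spot, per the file headers. The processed signal was taken to log2 and the array's 75th percentile subtracted; outlier-marked spots were dropped, also when counting arrays for the filter, and repeat spots were averaged. Of the 136 member probes, 113 were named through their accession, 21 by symbol, and 2 matched no current name; no genome was used, so no coordinates are given. Roles came from the gene name, with IL1RN counted as a ligand.

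One limma 3.58.1 fit (R 4.3.3) held all 23 arrays, with p-values adjusted by Benjamini-Hochberg over 27785 probes; other steps used Python 3.11.15 and scipy 1.17.1, with 100000 permutations for correlations. The code was checked on simulated data. The named genes were, for each comparison, those past the threshold and the 8 with the smallest p, the 10 with the highest level, and the brightest of each role, each represented by its brightest kept probe; from each pathway list the 2 genes with the smallest p in each comparison were taken. CCR1, CXCL9, CXCL10, IFNAR1, IFNGR1, IL6, IL15, TGFB1 and TGFB2 fall outside this rule and were picked after their values were seen. The members, lists and pairs were chosen with earlier results of these data known. Each array stood for a separate sample by its label; whether littermates were included is not given in the sources used here. Alternatives covered scaling, background correction, filters, slide, scan day and replicate blocks, variance models, a threshold of 0.01 and leaving out pigs. Replicate numbers were not treated as pairs in the fit reported. Some items, 1 of the 8 correlated pairs among them, are not reported here.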

Additional observations from a re-analysis of the deposited data

Results flagged for a closer look

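In 78 sets of values (26 named genes in 3 groups), 8 held 1 pig set apart from the others of its group by a gap; chance gives about 1 in 20. TNFRSF11B stood at -4.02 in RFIplR replicate 4, against -3.08 to -2.25 in the other RFIplR pigs, and IFNG at -1.94 in RFIplR replicate 7, against -3.84 to -3.12. TGFB3 stood at 0.69 in RFIplR replicate 5, against -0.13 to 0.24. Of the RFIpl pigs, replicate 2 was high for CCL4, at -0.40 against -2.46 to -1.91, and low for IFNAR2, at 8.64 against 8.92 to 9.17. Replicate 4 of RFIpl was high for IL13RA1, at -0.87 against -3.49 to -2.47, and replicate 1 low for IL4R, at 0.52 against 1.44 to 1.86. CXCR4 stood at 0.57 in RFIneg replicate 1, against -0.89 to -0.35 in the other RFIneg pigs.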

How the results depend on the processing

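Under each alternative and without each pig in turn, 0 member probes were called in every comparison, the same as in the fit reported. Over all probes, the calls for RFIneg against RFIpl (34) were 14 at a threshold of 0.01, 0 with normexp, 20 with the deposited values, 22 without a filter, 18 with probes well above background on every array, 19 with slide as a fixed block, 52 with trend and robust variance, 119 with array weights and 18 without slide 3. For RFIplR against RFIpl (1) they were 0 at 0.01, with median centring, normexp, no filter, slide as a fixed block, the replicate block, trend and robust variance, 2 groups only and without slide 3, 2 with slide as a random block and 3 with a scan day block. For RFIneg against RFIplR (45) they were 10 at 0.01, 23 with median centring, 0 with normexp, 21 with the deposited values, 18 without a filter, 25 with slide as a fixed block, 98 with it as a random block, 20 with the replicate block, 76 with trend and robust variance, 99 with array weights, 25 with 2 groups only and 15 without slide 3. In the F test (38) they were 15 at 0.01, 0 with normexp, 22 without a filter, 66 with probes well above background on every array, 138 with slide as a random block, 19 with the replicate block, 92 with trend and robust variance, 164 with array weights and 20 without slide 3. Without each pig in turn, calls ranged from 22 to 40, 0 to 7, 18 to 68 and 24 to 70 in the same order; the lowest first value came without RFIneg replicate 5 or RFIpl replicate 2, the 7 without RFIplR replicate 3, and the 18 and 24 without RFIneg replicate 1, the 68 and 70 without RFIplR replicate 1. For RFIneg against RFIplR, removing RFIneg replicate 2, 5 or 6, RFIplR replicate 2, 4, 6 or 8, or RFIpl replicate 7 gave 20 to 26. For RFIplR against RFIpl, 0 calls were left without most single pigs, and 2 and 4 without RFIpl replicates 1 and 8. The cause was not tested. Arrays of different groups with the same replicate number correlated between -0.30 and 0.33 in their deviations from the group means. These values also hold slide effects, so they cannot decide whether the numbers pair pigs.

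The median member difference was 0.325 between RFIplR and RFIpl and -0.242 between RFIneg and RFIplR with normexp, which moved the median of all probes to 0.21 and -0.14; relative to these, members leaned the other way than in the fit reported. Leaving out pigs gave -0.047 to 0.042, -0.104 to -0.062 and 0.059 to 0.115. Of 901 values for named genes, 886 kept their sign, and 13 of the 15 reversals came with normexp. These were, for RFIneg against RFIpl, TNFRSF1A at -0.05; for RFIplR against RFIpl, IFN-DELTA-6 at 0.15, TNFRSF1A at -0.68, IFN-DELTA-9 at 0.15, TNFSF10 at 0.14, CCL4 at 0.31, IL13RA1 at 0.48 and CCL25 at -0.04; and for RFIneg against RFIplR, IFN-DELTA-6 at -0.10, IFN-DELTA-9 at -0.05, IL6ST at 0.06, TNFRSF11B at -0.24 and IL1RN at -0.20. The other 2 were TNFRSF1A as the mean of its probes, at -0.02 and -0.00. Probes near background limit what can be seen for IL6 and IL1A, and dim signals are a limit for other genes too. Of the 59 kept genes, 28 had a level below -2, among them CCL20, IFNG, CCR1, IL13RA1, TNFRSF11B, IL25 and CCRL2.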
